A study of Homo sapiens with 30 samples.

Results

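Broad H3K27me3 domains are long stretches of chromatin in which peaks of this Polycomb mark follow one another closely. They were defined in 1 CUT&Tag library of K562 cells, a human leukaemia line kept in culture, made with the H3K27me3 antibody CST9733 at 1/100 with SDS extraction and 15 PCR cycles. The SEACR peaks of that library on chromosomes 1 to 22 and X were joined when at most 1000 bp apart, and joined regions of at least 10000 bp were kept. Regions touching the stretch of chromosome 22 at 18.9 to 23.7 Mb or of chromosome 9 at 133.5 to 134.2 Mb (hg19) were left out. The 106997 peaks gave 64904 joined regions outside these windows, of which 2645 (4.08%) were broad domains. Position, width and peak signal in that library chose the domains and are given as description, with no test.

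H3K27me3 is written by Polycomb repressive complex 2, through its catalytic subunit EZH2 or EZH1, and the complex also binds the mark it has made, which lets the mark extend along a chromosome. Polycomb repressive complex 1 reads the mark through CBX proteins, and long H3K27me3 tracts are known for silenced developmental regulators. H3K27ac is placed on the same lysine by p300 and CBP at active promoters and enhancers, so 1 histone tail cannot carry both. In CUT&Tag a transposase tethered to the antibody cuts beside the mark, and a population of cells, or the pair of alleles within 1 cell, can give both marks at 1 place.

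The libraries set against the domains were 4 H3K27me3 and 25 H3K27ac libraries of the same line, each from 500000 cells and each the only library of its condition. The 4 H3K27me3 libraries used CST9733 at 1/100, with 11 cycles and SDS, 11 cycles and column, 13 cycles and SDS, or 13 cycles and column extraction. For H3K27ac at 15 cycles with SDS, TSA (trichostatin A, an inhibitor of histone deacetylases) was added with ab177178 at 1/100, ab4729 at 1/100 and Diagenode C15410196 at 1/100 and 1/50. The untreated 15-cycle libraries were these 4 and Active Motif 39133 at 1/100. The other 16 were untreated, with ab177178, ab4729 or Active Motif 39133 at 1/100 or Diagenode C15410196 at 1/50, at 11 or 13 cycles and with column or SDS extraction. Per the labels, downsampling preceded peak calling at 11 and 13 cycles, and no such step is named at 15 cycles. The H3K27ac lists held 3024 to 22808 peaks on the chromosomes used, and the read depth behind each list is unknown. With 1 library per condition no value has a replicate error. The tests below compare conditions, so their p-values measure only the spread among them.

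The domains covered 44.5 Mb, 1.51% of the 2951 Mb spanned by peaks, and held 26.1% of the 149 Mb covered by the list. The median domain was 14086 bp wide, with quartiles of 11621 and 18827 bp and a longest of 108426 bp. A domain joined a median of 5 peaks, and peaks took 87.6% of domain length. Most were not far above the width required: 1482 were 10 to 15 kb wide, 597 were 15 to 20 kb, 393 were 20 to 30 kb, 148 were 30 to 50 kb and 25 were at least 50 kb. Joining at 0.5 kb would give 1302 domains and joining at 3 kb 5695. A single unjoined peak of at least 10000 bp was present in 326 domains (12.3%). The MACS2 list of the same library covered 89.9% of domain length and at least 50% of 2635 domains. That list comes from the same reads and is a check of the caller only.

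Regions on either side of the width required had overlapping coverage in the 4 other CST9733 lists. The nearest inside was on chr7:47652648-47662648 (10001 bp), with a mean of 5.60% covered. The nearest outside was on chr2:109913409-109923403 (9995 bp), with a mean of 12.8%. Over the 5 regions on either side of the limit, mean coverage spanned 5.60% to 43.0% inside and 12.8% to 40.1% outside.

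The domains were unevenly spread along the genome. Chromosome 21 had 2.02 domains per Mb (78 domains), chromosome 17 had 1.90 (154) and chromosome 1 had 1.70 (424). The lowest densities were on chromosome X with 0.0838 per Mb (13 domains), chromosome 13 with 0.167 (16) and chromosome 18 with 0.179 (14). No correction for copy number is named in the processing notes. Domain density and protein-coding genes per Mb (RefSeq) had a Spearman rho of 0.70 and a Pearson r of 0.38 across 23 chromosomes. Without chromosomes 17 and 19, the farthest from the median gene density, r was 0.53. All 23 points come from 1 library, and joined regions of any width per Mb followed domain density too (rho 0.80, r 0.69). Chromosome 19, with 24.6 genes per Mb, had 0.965 domains per Mb.

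**Figure D1:**
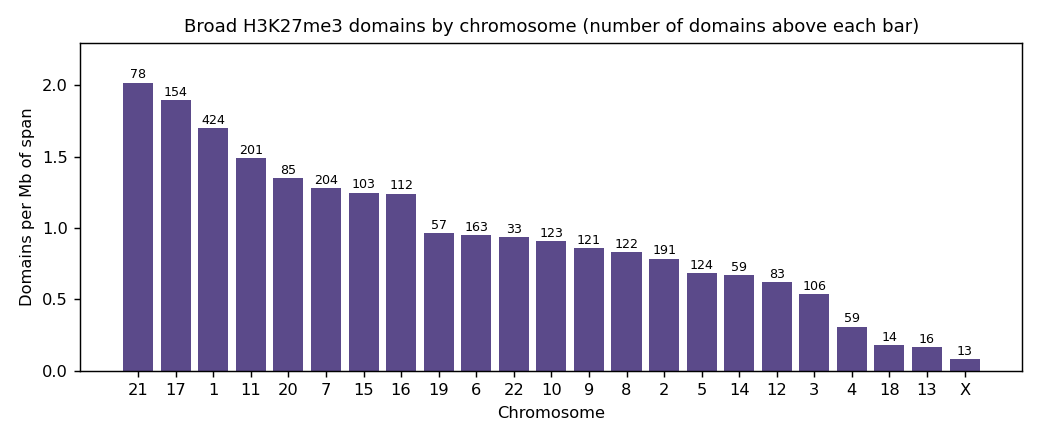
Broad H3K27me3 domains per Mb of the span analysed (vertical axis) on each chromosome (horizontal axis, ordered by density), with the number of domains above each bar. Chromosome 21 has 2.02 domains per Mb and chromosome X 0.0838.

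Domains sat near one another. The joining rule counts a tract broken by more than 1000 bp as separate regions, and the spacing of all joined regions is not given here. The median distance to the nearest other domain was 18329 bp, 1060 domains (40.1%) had another within 10 kb, and 2067 (78.1%) had another within 100 kb. Joining domains at most 100 kb apart gave 1128 groups, and 144 groups of at least 5 held 1014 domains (38.3%). The largest group had 17 domains on chr7:157217476-157825330, with 354.9 kb of domain in it. The next had 15 on chr1:2990496-3640430. At the scale of 5 Mb, 48 of 620 windows (7.74%) held 50% of domain length and 296 held no domain. The leading window, chr7:155000001-160000000, held 54 domains and 1037 kb. It was followed by chr1:200000001-205000000 with 43 domains and 1012 kb, chr9:135000001-140000000 with 50 domains and 869 kb, chr21:40000001-45000000 with 34 domains and 839 kb, and chr1:20000001-25000000 with 40 domains and 715 kb. Ends were taken as the first and last peak of any list on a chromosome, which need not be the ends of the chromosome itself. Within 5 Mb of such an end lay 696 domains (26.3%), a zone that takes 7.80% of the span. The share of all joined regions in that zone is not given here, so this may not be particular to broad domains. No gene is assigned to a domain, because the gene table used here is on another assembly.

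All 4 other CST9733 libraries found nearly every domain, but as fragments. At least 1 bp was covered in 2615 domains at 11 cycles with SDS, 2632 at 11 cycles with column, 2633 at 13 cycles with SDS and 2623 at 13 cycles with column extraction. Among all joined regions of any width those shares were 36%, 39.5%, 42.2% and 38%, and a wider region is hit more easily. A stricter measure, at least 50% of the domain covered, was met by 287 domains (10.9%) at 11 cycles with SDS, 750 (28.4%) at 11 cycles with column, 973 (36.8%) at 13 cycles with SDS and 663 (25.1%) at 13 cycles with column extraction. The same measure held for 7.95%, 11.4%, 14.1% and 10.8% of all joined regions. In all 4 lists together it held for 212 domains (8.02%), against 1.25% of all joined regions, and 1423 domains (53.8%) met it in none.

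Covered length gave the same picture. Peaks covered 32.4% of domain length at 11 cycles with SDS, 42.5% at 11 cycles with column, 46.1% at 13 cycles with SDS and 40.2% at 13 cycles with column extraction. In the rest of the span those lists covered 1.06%, 1.27%, 1.42% and 1.22%. In joined regions of 2 to 5 kb they covered 16.3%, 20.1%, 22.7% and 19.5%. The mean was 40.3% of domain length against 19.6% of the shorter regions, a difference of 20.7 ± 3.25 percentage points (SD, n = 4 lists), with all 4 lists higher in the domains. The exact two-sided sign-flip permutation p was 0.12, the smallest that 4 lists allow, and 0.23 after Benjamini-Hochberg adjustment over 7 tests, so the design cannot pass a threshold of 0.05. Against regions of 5 to 10 kb the difference was 12.03 points, and with peaks joined at 3 kb 13.2.

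Coverage climbed with width through every class, in each of the 4 lists. Averaged over them it was 9.28% in regions under 1 kb, 19.6% at 2 to 5 kb, 28.3% at 5 to 10 kb, 34.5% at 10 to 15 kb, 44.7% at 20 to 30 kb and 56.6% at 50 kb and over. Signal in the choosing library went the same way: the 662 domains of highest signal per covered base had a median coverage of 53.9% over the 4 lists and a median width of 17787 bp, and the 661 of lowest signal had 24.0% and 12200 bp.

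**Figure D2:**
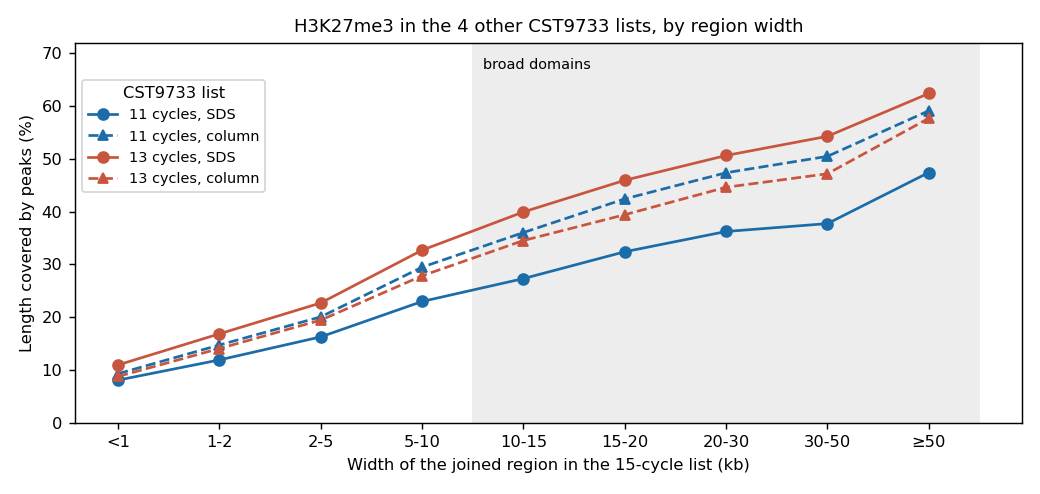
Percent of length covered by peaks of the 4 other CST9733 lists (vertical axis) in joined regions of the 15-cycle list grouped by width in kb (horizontal axis); broad domains are the shaded classes. Coverage increases with width in every list, and the 11-cycle SDS list (filled blue circles) is lowest throughout.

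Within a domain, coverage was greatest in the middle. When each domain was cut into 10 equal parts, the outermost parts were covered 23.9% to 37.0% across the 4 lists and the fifth part 37.2% to 51.2%. Of all domain bases, 27.6% were covered in no other list, 24.2% in 1, 19.9% in 2, 15.9% in 3 and 12.4% in all 4. In the regions of 2 to 5 kb, 53.1% of bases were covered in no other list and 2.46% in all 4. The median domain held 6 peaks in each of the 4 lists. Its longest covered run, after joining at 1000 bp, was 3058 bp at 11 cycles with SDS, 4424 bp at 11 cycles with column, 4992 bp at 13 cycles with SDS and 3991 bp at 13 cycles with column extraction. A joined run of at least 10000 bp touched 144, 380, 435 and 309 domains in that order, and such a run need not lie wholly in the domain. At most 435 domains (16.4%) were thus touched by a run that broad in any single one of these lists.

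Peaks of the 4 lists also had more total signal where they fell in domains. Median total signal, which SEACR sums over the bases of a peak, was 1218, 1484, 1685 and 1505 in domains, in the same order of lists. It was 979, 1076, 1225 and 1131 in shorter joined regions, and 794, 816, 951 and 894 elsewhere. Peaks in domains were also wider, with medians of 664, 732, 779 and 744 bp against 600, 621, 655 and 645 bp in shorter joined regions. Signal per covered base was 2.21, 2.59, 2.58 and 2.45 in domains and 1.86, 2.06, 2.12 and 2.00 in shorter joined regions. Median maximum signal was 3, 4, 4 and 4 against 3, 3, 4 and 3. Signal is the authors' own value per peak and is compared only within a list.

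Some domains were recovered almost whole and others scarcely at all. Only 3 were covered at least 80% in all 4 lists. The domain on chr12:113901928-113917692 (15765 bp) was covered 81.4%, 83.4%, 87.7% and 85.3%, and held no H3K27ac peak in any of 25 lists. The others were on chr8:86554684-86576412 (89.4% to 93.4%) and chr5:17517662-17530655 (94.5% to 99.1%). Both had high signal in the choosing list, 27.9 and 32.1 per covered base against a median of 3.64 over all domains. They held H3K27ac peaks in 18 and 15 of 25 lists. They lay 536 and 102 kb from a span of at least 1 Mb with no peak in any list. Only 4.12% of all domains lay within 1 Mb of such a span. The lowest mean coverage, 0.753%, was on chr1:3239064-3252071, where 3 of the 4 lists had no peak. Next came chr1:7177501-7188016 with 1.65% and chr7:3244402-3256798 with 1.97%.

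The widest domain, on chr8:86732490-86840915, was covered 76.1% to 82.1% in the 4 lists and reached a maximum signal of 175, against a median of 13 over all domains. It held H3K27ac peaks in 22 of 25 lists and lay 714 kb from a span of at least 1 Mb with no peak in any list. The following ones were on chr7:131211539-131299660 (88122 bp), chr1:9361594-9449322 (87729 bp), chr1:201015333-201101474 (86142 bp) and chr1:201322161-201403313 (81153 bp). These 4 were covered 39.4% to 66.9%, with maximum signals of 21 to 33. Among the 10 widest, the domain on chr17:43864100-43929239 (65140 bp) was recovered least, 10.0% at 11 cycles with SDS, 28.5% at 11 cycles with column, 27.3% at 13 cycles with SDS and 19.7% at 13 cycles with column extraction.

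H3K27ac peaks covered a small part of domain length. Their coverage was lower inside the domains than in the rest of the span in 15 of 25 lists. Of the 2645 domains, 1530 (57.8%) had no H3K27ac peak inside in any of the 25 lists, against 91.7% of all joined regions, most of which are far shorter. A stricter condition, no H3K27ac inside or within 10 kb of either end in any list, left 1142 domains (43.2%), against 75.4% of all joined regions. The widest of them were on chr9:126740575-126789182 (48608 bp), chr9:124491755-124539738 (47984 bp) and chr19:42647691-42687017 (39327 bp). The 4 other H3K27me3 lists covered a mean of 49.7%, 49.8% and 38.2% of them.

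In the untreated libraries at 15 cycles, 448 domains (16.9%, 95% Wilson interval 15.6 to 18.4, counting error only) held a peak of at least 1 of the 5 lists. The share among all joined regions was 3.78%. By the MACS2 lists of the same 5 libraries 7.45% of domains held a peak. By list, H3K27ac lay in 418 domains with ab177178, 36 with ab4729, 39 with Active Motif, 41 with Diagenode at 1/100 and 34 with Diagenode at 1/50. The shares of all joined regions were 3%, 1.31%, 0.72%, 1.01% and 1.11%. Of the 393 domains marked by 1 list alone, 368 were marked by ab177178, and 12 domains were marked by all 5. Of all joined regions 2.45% were marked by 1 list alone, 2.08% by ab177178 alone and 0.364% by all 5. Wider domains held H3K27ac more often, 11.0% at 10 to 15 kb and 84.0% at 50 kb and over. A count of at least 1 bp is met more easily by a wider region, and most joined regions are far shorter than the domains. Here and below, shares of marked domains and of all joined regions therefore do not compare like widths.

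As a share of length, untreated ab177178 peaks at 15 cycles covered 2.20% inside domains and 0.849% in the rest of the span. The order was the opposite for ab4729, 0.359% inside and 1.46% in the rest, and for Diagenode at 1/50, 0.431% inside and 1.08% in the rest. Diagenode at 1/100 gave 0.345% inside and 0.399% in the rest, and Active Motif 0.219% inside and 0.102% in the rest. Thus 2 of 5 antibody conditions were higher in domains and 3 were lower.

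Coverage of H3K27me3 regions by width also differed between antibodies. Coverage by untreated ab4729 was 0.251% in domains of 10 to 15 kb and 1.62% in joined regions under 1 kb. Active Motif had 0.141% in these domains and 0.679% in the regions under 1 kb, and Diagenode at 1/50 had 0.283% and 1.37%. With ab177178 it was 1.57% in these domains and 1.5% in the regions under 1 kb. In these lists coverage did not change steadily with width. At 30 to 50 kb it was 0.0873% with ab4729, 0.0364% with Active Motif, 0.0863% with Diagenode at 1/50 and 1.96% with ab177178. In the 25 domains of 50 kb and over it was 1.31%, 0.515%, 1.64% and 6.45% in that order. The widest domain is among these 25, and the same lists covered 19.6%, 7.38%, 24.6% and 36.9% of it. Peaks of ab177178 that touched domains had the median width of its other peaks, 1396 against 1392 bp, and a median maximum signal of 6 against 7.

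Over the 16 downsampled H3K27ac lists, coverage averaged 0.238% inside and 0.244% in the rest of the span. The mean difference was −0.0060 ± 0.27 percentage points (SD, n = 16), with 6 lists higher inside, and an exact sign-flip permutation p of 0.93 (adjusted 0.93). The sign of the mean turns when ab4729 is left out (0.0588) or Diagenode is (0.0025), and it covers a split by antibody and cycle number. With ab177178 at 11 cycles, coverage inside was 0.884% with SDS and 0.931% with column extraction, against 0.349% and 0.261% in the rest. These lists marked 259 and 296 domains, where 1.73% and 1.88% of all joined regions were marked. With ab177178 at 13 cycles, coverage inside was 0.117% with SDS and 0.0899% with column extraction, against 0.381% and 0.351% in the rest. All 4 downsampled ab4729 lists were lower inside, at 0.0364% to 0.122%, than in the rest, at 0.223% to 0.377%.

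A small set of domains held much of the H3K27ac peak length inside domains in most lists. Domains with H3K27ac in at least 13 of 25 lists numbered 16 (0.605%), a share near the 0.585% of all joined regions that met this condition. The 3 with H3K27ac in all 25 lists were chr2:92305215-92326169, chr10:42527385-42537782 and chr10:42383267-42401024. The 5 untreated 15-cycle lists covered a mean of 98.7%, 97.3% and 89.3% of them. Of the 16 domains, 11 lay within 1 Mb of a span of at least 1 Mb with no peak in any list, against 109 of all 2645 (4.12%). Their median signal per covered base in the choosing H3K27me3 list was 10.1, against 3.64 over all domains. The part of this position and signal in the H3K27ac values was not tested. Whether the peaks of both marks in these domains reflect the marks themselves was not tested either.

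The 16 domains amount to 370.6 kb and held 14.8% to 100% of a list's H3K27ac length inside domains, with a median of 84.3%. Without them, a setting chosen after these values were seen and given no test, 21 of 25 lists were lower inside than in the rest, against 15 of 25 with them. Because the 16 were chosen for their H3K27ac and the rest of the span kept its own widely shared H3K27ac, the inside values had to fall, and the change in this count is no evidence about the other domains. Over the 16 downsampled lists the mean was then 0.100% inside and 0.244% in the rest, with 2 lists higher inside. Untreated ab4729 at 15 cycles then covered 0.0738% inside and 1.46% in the rest, and Active Motif 0.0407% inside and 0.102% in the rest. The 4 lists still higher inside were untreated ab177178 at 15 cycles, 1.88% inside and 0.849% in the rest, ab177178 at 11 cycles with SDS, 0.601% and 0.349%, ab177178 at 11 cycles with column, 0.665% and 0.261%, and ab4729 with TSA, 2.68% and 0.767%.

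**Figure D3:**
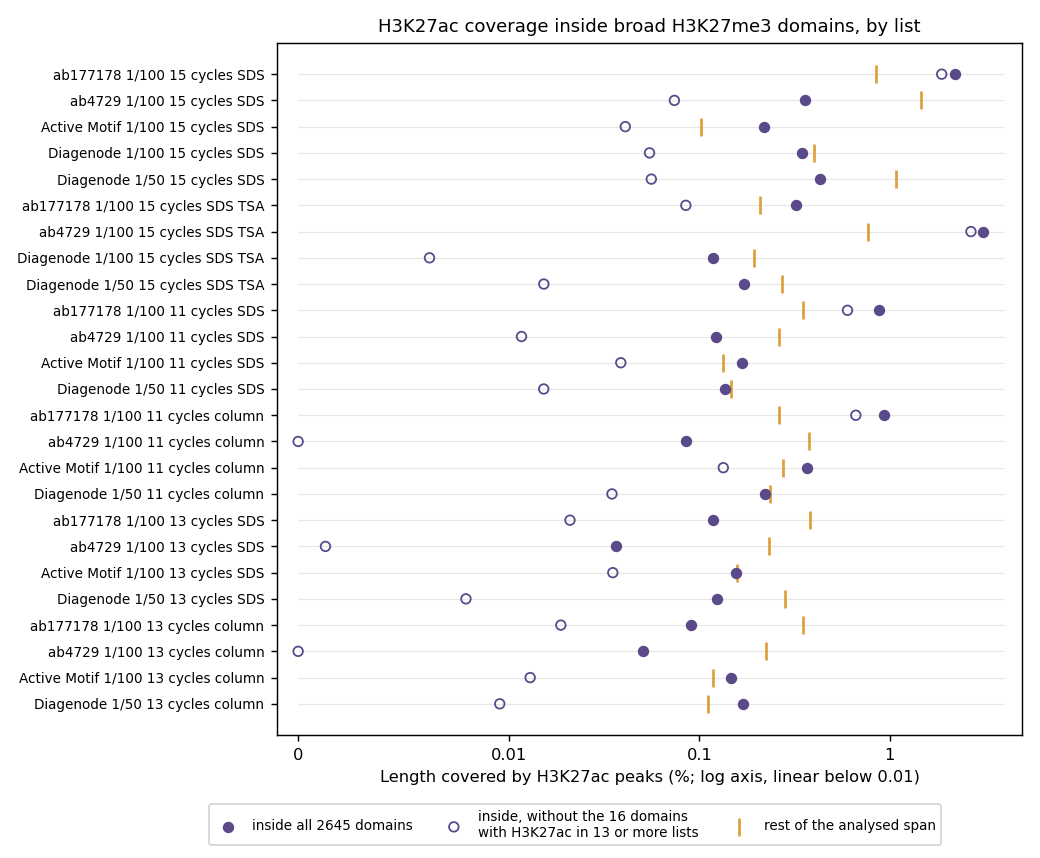
Percent of length covered by H3K27ac peaks (horizontal axis, log scale, linear below 0.01) in each of 25 lists (rows). Filled points are all 2645 domains, open points the domains without the 16 that hold H3K27ac in 13 or more lists, and orange bars the rest of the span; open points lie left of the bar in 21 lists.

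Domains marked in those 4 lists overlapped one another in part. The TSA ab4729 list and the untreated 15-cycle ab177178 list shared 249 domains, 33.8% of the 736 marked by the TSA ab4729 list and 59.6% of the 418 marked by ab177178. Over all joined regions the shares of the same lists were 30.3% and 52.2%, and 1.56% of regions were marked by both. The ab177178 lists at 11 cycles shared 97 domains, 37.5% of the SDS list's 259 and 32.8% of the column list's 296. Over all joined regions these shares were 42.4% and 39.1%, and 0.735% of regions were marked by both. In all, 929 domains (35.1%) were marked in these 4 lists alone, and 186 (7.03%) in any of the other 21. Among all joined regions those shares were 6.03% and 2.31%. Domains marked by ab4729 with TSA were wider than those not marked, with medians of 16804.5 and 13512 bp. The 4 other H3K27me3 lists covered a median of 42.6% of the marked and 35.3% of the unmarked domains. Gaps between the joined H3K27me3 peaks make up 12.4% of domain length, and they took 0% to 9.04% of the H3K27ac length inside (median 4.04% over 25 lists). In all 25 lists this was below 12.4%, a share taken over all domains. The 16 domains with widely shared H3K27ac held a median of 84.3% of the H3K27ac length inside. Their own gap share is not given here, so the comparison does not describe domains in general.

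The TSA libraries stood above their untreated partners for some antibodies and below them for others, with 1 library each. With ab4729, 5.49% of the list's covered length lay inside domains with TSA and 0.369% without it, and 736 domains (27.8%) were marked with TSA and 36 without. Of all joined regions, 5.17% were marked by the TSA list. With ab177178 the share was 2.25% with TSA and 3.56% without, and 57 domains were marked with TSA (0.991% of all joined regions) and 418 without. Diagenode at 1/100 had 0.907% with TSA and 1.28% without, with 12 marked domains (0.515% of all joined regions) and 41. Diagenode at 1/50 had 0.940% with TSA and 0.601% without, with 22 marked domains (0.65% of all joined regions) and 34. The mean difference was 0.943 ± 2.86 percentage points (SD, n = 4 pairs), with 2 pairs higher and an exact sign-flip permutation p of 0.875 (adjusted 0.93; 4 pairs cannot go below 0.12). Without the ab4729 pair it was −0.449, without the 16 shared domains 0.505, and with peaks joined at 3 kb 2.50. Of the 36 domains marked by untreated ab4729, 34 were also marked with TSA, 4.62% of the 736. The TSA ab4729 peaks that touched domains had a median maximum signal of 5, against 7 for its other peaks.

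**Figure D4:**
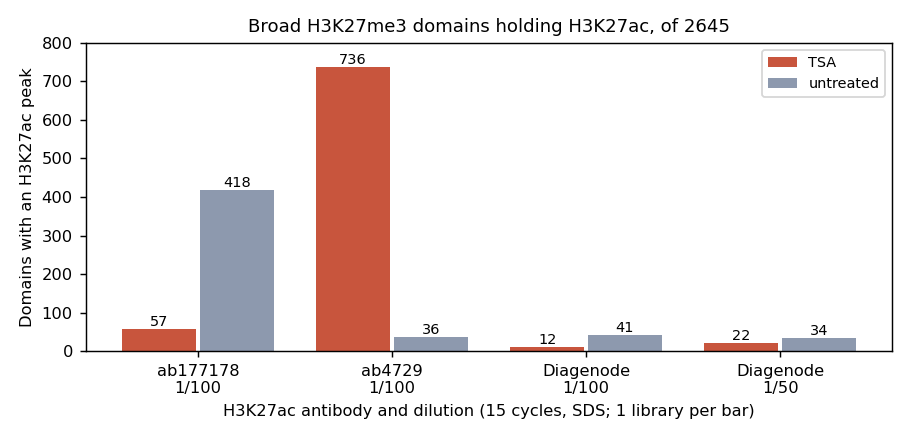
Number of the 2645 broad domains with an H3K27ac peak inside (vertical axis) for each antibody and dilution at 15 cycles, TSA (red, left) beside untreated (grey, right), 1 library per bar. The ab4729 pair has 736 with TSA and 36 untreated, and the ab177178 pair 57 and 418.

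Extraction and cycle number gave no difference past the threshold. Column extraction put a mean of 0.38 ± 0.69 percentage points more of a list inside domains than SDS (SD, n = 8 pairs, 6 higher), with an exact sign-flip permutation p of 0.164 and an adjusted p of 0.23. At 13 cycles the share differed from that at 11 cycles by a mean of −1.03 ± 1.75 points (SD, n = 8 pairs, 2 higher), with an exact permutation p of 0.141 and an adjusted p of 0.23. The ab177178 pairs carried most of the cycle difference, 0.453% at 13 and 3.45% at 11 cycles with SDS, and 0.381% at 13 and 4.78% at 11 cycles with column extraction. Without ab177178 the mean was −0.139. Without the 16 shared domains the column minus SDS mean was 0.155.

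Just outside the domains H3K27ac was lower than farther out. In the 2 kb outside either end, the 16 downsampled lists covered a mean of 0.0726%, against 0.283% in the flanks 20 to 50 kb away, other domains removed from both. The difference was −0.211 ± 0.092 percentage points (SD, n = 16), and the edges were lower in 16 of 16 lists. The exact sign-flip permutation p was 3.05e-05, the smallest that 16 lists can give, and 0.000214 after Benjamini-Hochberg adjustment. The lists share 4 antibodies, and a mean per antibody gives the same difference with an exact p of 0.12, the smallest for n = 4. Of all 25 lists, 24 were lower at the edges than in the far flanks, and 25 were lower there than inside. Without the 16 shared domains the means over the downsampled lists were 0.0413% at the edges and 0.277% in the far flanks. Again 16 of 16 lists were lower at the edges. Leaving out domains chosen for their H3K27ac favours a lower edge value, so this setting is no added evidence. The exception among the 25 was untreated Active Motif at 15 cycles, with 0.149% at the edges and 0.147% in the far flanks.

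The edge is also where the joining rule acts: it requires the first 1 kb outside a domain to hold no peak of the choosing list. The 4 other H3K27me3 lists had a dip at the same place, covering 5.93% to 10.8% of the first 1 kb outside, 20.3% to 32.2% of the first 1 kb inside and 10.8% to 15.6% at 4 to 5 kb outside. The part of this rule in the H3K27ac values was not tested. Coverage at the edges of shorter joined regions is not given here, so the lower edge value may not be particular to broad domains.

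Farther out, coverage depended on the antibody. Untreated ab4729 at 15 cycles covered 0.175% of the first 1 kb outside, 0.746% at 4 to 5 kb and 1.28% at 19 to 20 kb, against 0.398% in the last 1 kb inside. Diagenode at 1/50 covered 0.235%, 0.519% and 0.877% at those distances, against 0.433% in the last 1 kb inside. Active Motif covered 0.161%, 0.216% and 0.117%, against 0.249% in the last 1 kb inside. With ab177178, coverage was 0.493%, 1.30% and 1.66%, against 1.61% in the last 1 kb inside. With TSA and ab4729 it was 0.787%, 1.65% and 1.48%, against 2.37% in the last 1 kb inside.

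**Figure D5:**
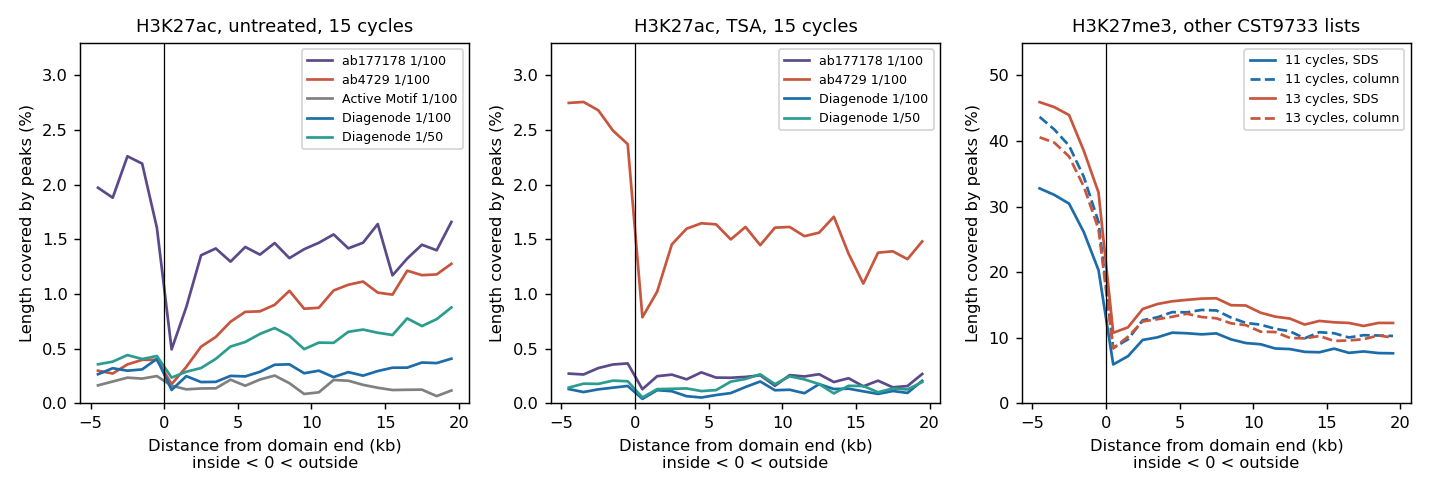
Percent of length covered by peaks (vertical axis) in 1 kb steps from the ends of the 2645 domains (horizontal axis, negative inside, positive outside with other domains removed). Left, untreated H3K27ac lists at 15 cycles; middle, TSA lists; right, the 4 other H3K27me3 lists, which are covered 20.3% to 32.2% in the last 1 kb inside and 5.93% to 10.8% in the first 1 kb outside.

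Between the domains and the 10 kb next to them, the difference in H3K27ac did not pass the adjusted threshold. The 16 downsampled lists covered a mean of 0.238% inside and 0.150% in the outer 10 kb, a difference of 0.087 ± 0.18 percentage points (SD, n = 16) with 10 lists higher inside. The exact sign-flip permutation p was 0.0499 and the adjusted p 0.17. Against the outer 5 kb the difference was 0.126 (adjusted exact permutation p 0.000427), and without ab4729 the 10 kb difference was 0.127 (adjusted exact permutation p 0.0325). Without ab177178 it was 0.0340 (adjusted exact permutation p 0.23). The 16 lists share 4 antibodies, and as a mean per antibody (n = 4) the exact permutation p was 0.25 and the adjusted p 0.35. The largest difference was in ab177178 at 11 cycles, with means of 0.908% inside and 0.403% outside over its pair of lists, and both ab4729 means and the 13-cycle ab177178 mean were lower inside. Leaving out the 16 shared domains, which by their choice lowers the inside value, gave means of 0.100% inside and 0.111% in the outer 10 kb, with 3 of 16 lists higher inside. An untreated 15-cycle H3K27ac peak lay within 2 kb outside either end of 139 domains (5.26%). The share among all joined regions was lower, 3.87%. At both ends it was 14 (0.529%), and each of these had H3K27ac inside as well. The share of all joined regions with H3K27ac at both ends is not given here, so this count has no background.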

How the data were processed

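The deposited SEACR lists, 1 per library, give each peak's total and maximum signal as whole numbers, which the authors' caller wrote. The deposited MACS2 lists, 6 in number, give a −log10 q-value and other scores per peak, of which only positions were used. The authors called peaks per library on hg19. The submitters' processing notes name SEACR, MACS2, Bowtie2 2.2.9 and Trim Galore 0.6.6, and also bedtools 2.25.0, SAMtools 1.3.1, bcl2fastq and Picard 2.6.0. Roles, SEACR mode and read depth were not stated there or in the labels.

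Coordinates are hg19, counted from 1. Overlapping peaks were merged before coverage was computed, and 0.449% to 5.82% of a SEACR list lay off chromosomes 1 to 22 and X and was left out. Coverage is the percent of length under peaks. All joined regions of the choosing list, domains included, gave the shares set beside counts of domains. Conditions were compared by an exact permutation test that flips the signs of the differences, two-sided, with Benjamini-Hochberg adjustment over 7 tests at 0.05. Domains, windows and lists were chosen with earlier results of these data known. The regions named follow fixed rules on width, coverage in other lists, H3K27ac and distance to the width limit. The 16 domains with widely shared H3K27ac were chosen after their values were seen. Alternatives changed the gap, width, lists, unit, windows, peak number and caller. The RefSeq table is on GRCh38.p14, so it gave gene counts per chromosome only, and no gene, marker check or sequence is reported. The code was checked on planted coverage and against bedtools 2.31.1, which counted the same 2645 domains. Python 3.11.15, numpy 2.4.6, scipy 1.17.1 and matplotlib 3.10.9 were used.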

Additional observations from a re-analysis of the deposited data

Results flagged for a closer look

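The effect of extraction on H3K27me3 in the domains had opposite signs at the 2 cycle numbers. Column minus SDS extraction was 10.1 percentage points of domain length at 11 cycles (42.5% with column, 32.4% with SDS) and −5.97 points at 13 cycles (40.2% with column, 46.1% with SDS). With 1 library per arm the difference between these effects was not tested.

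The effect of TSA on the share of H3K27ac length inside domains had opposite signs for 2 antibodies. TSA minus untreated was 5.12 percentage points with ab4729 and −1.31 points with ab177178, 1 library per arm, and the difference between them was not tested. The same lists differ in size beyond the domains: ab4729 covered 25.3 Mb with TSA and 43.3 Mb without, and ab177178 covered 6.33 Mb with TSA and 27.5 Mb without.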

How the results depend on the processing

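The number of domains, 2645, depends on its definition: 1302 with peaks joined at 0.5 kb, 5695 at 3 kb, 7964 with a width of at least 5 kb and 566 at 20 kb. The share with untreated 15-cycle H3K27ac inside, 16.9%, was 7.45% by the MACS2 lists and 30.9% at 20 kb. H3K27ac inside minus rest changed sign to 0.058 points at 20 kb, and spanned −0.0646 to 0.0588 when 1 antibody was left out. Inside minus outer 10 kb passed the adjusted threshold at 20 kb (0.139), with the strongest 3761 peaks of each list (0.0520) and against the outer 5 kb (0.126), and spanned 0.0340 to 0.127 with 1 antibody left out. Outer edges minus far flanks missed it in the 5 untreated 15-cycle lists (−0.736) and as means per antibody (−0.211, n = 4), where too few values are left to pass, and spanned −0.234 to −0.190 with 1 antibody left out. Leaving out 1 antibody gave −0.449 to 1.90 for TSA, 0.245 to 0.548 for extraction and −1.39 to −0.139 for cycles, and leaving out 1 list gave 19.7 to 22.2 for H3K27me3 in domains against shorter regions, which was 12.03 against regions of 5 to 10 kb and 13.2 with peaks joined at 3 kb. That joining gave 2.50 for TSA and −1.63 for cycles, and a width of at least 20 kb gave 0.384 for TSA, 0.214 for extraction and −0.562 for cycles. Without the 16 domains with widely shared H3K27ac, a setting chosen after seeing the data, inside minus outer 10 kb was −0.011 points. Of 74 alternatives, 57 were counted as unchanged, by a rule that differed between results. For the tests it was the same sign and side of the adjusted threshold, which 1 of the 7 main tests passed. For the number of domains it was a fixed factor, and for the share with H3K27ac inside the 95% Wilson interval. Without the 16 domains it was the same sign and a move below the SD. The cause of the other changes was not tested. No pairing by replicate was possible because each condition has 1 library, so no replicate can be a block. The TSA, extraction and cycle pairs are matched conditions and were tested as pairs. Unknown depth at 15 cycles limits every count of marked domains.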
